A study of Mus musculus with 16 samples.

Results

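The SLC25 carriers are the largest family of solute transporters of the inner mitochondrial membrane. They were described here as all probe sets whose platform annotation gives exactly 1 gene symbol starting with Slc25a, apart from the adenine nucleotide translocator genes Slc25a4 and Slc25a5 and the carnitine carrier gene Slc25a20. This rule took 51 of 22690 probe sets, for 30 genes, of which 12 genes had several probe sets. The rule uses only names and no measured value. Left ventricles came from mice of the strain C57BL/6J aged 12-14 weeks, and 16 arrays, each of a separate biological replicate, formed 4 groups of 4: females after TAC, females after sham surgery, and males after each of these. TAC is transverse aortic constriction, a surgical narrowing of the aortic arch that makes the left ventricle pump against raised pressure, and RNA was taken 14 days later. The sham groups are operated controls, the TAC mice were given ketamine with isoflurane for surgery and buprenorphine after it, and the series asks how the early response depends on sex. An array is named below by its group and the replicate number in its title.

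As background, SLC25 proteins are built from 3 repeats of a pair of membrane helices. Most move a small solute across the inner membrane, often in exchange for another. Slc25a17 is peroxisomal, and Slc25a46 lies in the outer membrane. In the heart, carriers of this family bring phosphate to ATP synthase, move malate, 2-oxoglutarate, aspartate and glutamate in the malate-aspartate shuttle that passes cytosolic reducing equivalents to the respiratory chain, and supply the matrix with coenzyme A, NAD, iron and nucleotides. A heart under pressure overload is known to lower many genes of mitochondrial fuel oxidation.

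A probe set is a group of short probes for 1 transcript region, and its signal is a brightness in arbitrary units. Signals of different probe sets cannot be set against each other as amounts, so differences were taken within each probe set across arrays. Signals of several probe sets were used together in choosing 1 per gene, in a ratio for Slc25a46 and in summed marker signals. Such sums follow the brightest probe sets. Of the 51 probe sets, 39 for 26 genes were bright enough to be tested, and 12 probe sets lay among the dimmest 40% of the array, below a mean signal of about 130.8. For each gene the probe set with the highest mean over the 16 arrays was taken, and the others are given beside it. Differences are those of mean log2(signal + 16), SE is the standard error, and "fell" or "rose" means an adjusted p below 0.05 in limma over all 13576 tested probe sets.

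Measures of RNA and labelling quality moved with the operation. Gapdh control signals at the 3' and 5' ends of the transcript had a ratio of 0.885 ± 0.039 (SD, n = 4) on sham and 1.08 ± 0.070 on TAC arrays of males, and of 0.865 ± 0.058 and 0.989 ± 0.030 on those of females, and TAC and sham arrays did not overlap in either sex. The 5' control signal of 18S rRNA averaged 13.35 ± 0.50 (log2, SD, n = 4) in sham males, 10.34 ± 1.89 in TAC males, 11.96 ± 0.91 in sham females and 10.20 ± 0.60 in TAC females, and male TAC 5 stood apart from its group. The 8 cardiomyocyte markers checked, among them Myh6, Tnnt2 and Myl2, were all detected above the filter. In tissue, fewer cells of a type and less RNA per cell cannot be told apart.

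After TAC, 4 carrier genes fell in both sexes, and none of the 26 tested genes rose in any comparison. The share of all genes that fell in both sexes was not counted, so this 4 of 26 cannot be set against it. Slc25a42 (coenzyme A), Slc25a13 (aspartate and glutamate), Slc25a11 (malate and 2-oxoglutarate) and Slc25a22 (glutamate) fell in males and in females, by 1.33-fold to 2.12-fold. Slc25a53 fell in males. When the sexes were averaged, the phosphate carrier gene Slc25a3, Slc25a35 and Slc25a30 also fell, by 1.18-fold to 1.503-fold.

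In males, 5 of 26 carrier genes fell and 0 rose, where limma called 15.9% of all 8272 genes, 7.77% lower and 8.1% higher, on their own probe sets of highest mean. In females, 4 of 26 fell and 0 rose, against 13.1% of all genes called, 6.69% lower and 6.37% higher. Averaged over the sexes, 7 of 26 fell and 0 rose, against 26.5% of all genes called, 13.1% lower and 13.4% higher. At an unadjusted p below 0.05 in limma, 8 carrier genes were lower in males, 7 in females and 8 averaged. On the probe sets of highest mean, 0 were higher. Among all 39 tested carrier probe sets, 1456176_x_at of Slc25a39 alone was higher at this cut, in females (0.32). The share of all genes at this cut was not counted, so these counts cannot be set against it. The median difference of the 26 genes was -0.21 in males and -0.05 in females, where the median of all 8272 genes was -0.01 in both. In males, 20 of the 26 genes lay below 0, and in females 16 did, where 51.5% and 51.6% of all genes did. The averaged comparison is built from the same arrays as the separate ones and adds no independent support.

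**Figure D1:**
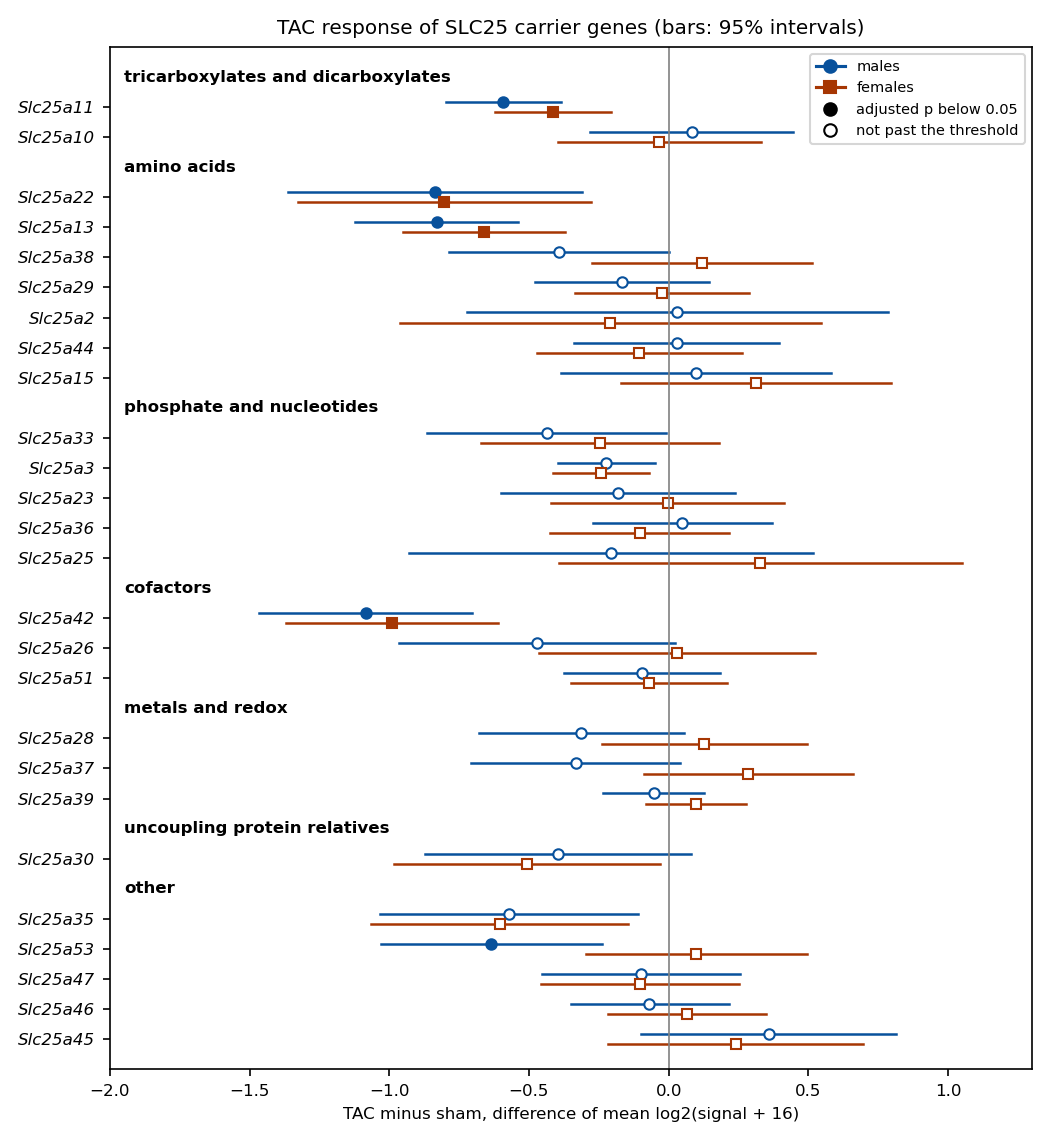
TAC minus sham for the 26 tested SLC25 genes, 1 probe set per gene, ordered by the kind of substrate; the horizontal axis is the difference of mean log2(signal + 16), circles are males, squares are females, bars are 95% intervals and filled symbols passed the adjusted threshold. Slc25a42, Slc25a13, Slc25a11 and Slc25a22 are filled in both sexes and Slc25a53 in males, all below 0.

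Slc25a42 encodes the carrier that brings coenzyme A into the mitochondrial matrix in exchange for adenine nucleotides. Its probe set 1424790_at had signals of 1164.9, 1100.7, 1073.5 and 831.0 on male sham 1 to 4 and of 452.8, 393.5, 690.7 and 426.7 on male TAC 1, 2, 4 and 5. In females it had 951.0, 1004.1, 675.5 and 883.8 on sham 1 to 4 and 462.6, 445.1, 334.7 and 492.6 on TAC 1, 2, 3 and 5. TAC and sham arrays did not overlap within either sex, and across the sexes male TAC 4 was brighter than female sham 3. The gene fell 2.12-fold in males (log2 difference -1.08 ± 0.18 SE, adjusted p = 0.000312 in limma) and 1.99-fold in females (-0.99 ± 0.18, adjusted p = 0.000962). The female response minus the male response was 0.09, with a 95% interval of -0.44 to 0.63. With the Gapdh ratio as a covariate, which separates the same arrays as the operation, the difference was -0.63 in males (adjusted p = 0.298, within a range over all alternatives of 6.3e-05 to 0.298) and -0.68 in females (adjusted p = 0.139, within 0.000595 to 0.139).

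Slc25a42 lies on chromosome 8 of GRCm38.p6 at 70184340 to 70212281, on the minus strand. The 250 bases before the annotated start are shown for the genes that fell and whose window overlaps no annotated gene, with every CCAAT box (CCAAT, read on both strands, so also ATTGG) in capitals. The sequences come from RefSeq, build GRCm38.p6, and run 5′ to 3′ on the strand of the gene.

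Slc25a42, chr8:70212282-70212531, minus strand: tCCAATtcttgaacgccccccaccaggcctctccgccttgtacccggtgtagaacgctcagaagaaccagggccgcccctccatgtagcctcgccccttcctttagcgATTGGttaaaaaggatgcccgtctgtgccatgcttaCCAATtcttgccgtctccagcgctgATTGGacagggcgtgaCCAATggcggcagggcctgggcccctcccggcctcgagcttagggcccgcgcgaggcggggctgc
Slc25a30, chr14:75787038-75787287, minus strand: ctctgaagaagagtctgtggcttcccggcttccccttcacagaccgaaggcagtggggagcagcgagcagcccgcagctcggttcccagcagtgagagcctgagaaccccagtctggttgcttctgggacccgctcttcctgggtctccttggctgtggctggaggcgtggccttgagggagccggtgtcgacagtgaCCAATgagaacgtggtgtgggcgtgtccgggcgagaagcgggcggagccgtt
Slc25a53, chrX:137038303-137038552, minus strand: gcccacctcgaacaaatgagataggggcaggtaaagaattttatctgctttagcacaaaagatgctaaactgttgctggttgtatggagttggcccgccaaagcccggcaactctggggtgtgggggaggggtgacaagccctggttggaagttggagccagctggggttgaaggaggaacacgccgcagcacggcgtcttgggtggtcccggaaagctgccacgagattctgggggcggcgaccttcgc

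The Slc25a42 window held 5 CCAAT boxes, the Slc25a30 window 1 and this Slc25a53 window 0, while a window before a second listed start of Slc25a53 held 1. At least 1 such box was found in 33.8% of 32851 RefSeq promoter windows of the same length and at least 5 in 0.213%. The table held entries for 23 of the 30 carrier genes, chromosome 18 aside, and 14 of these 23 had a CCAAT box before at least 1 listed start, against 37.5% of all 27025 genes. Of the 7 called genes with an entry, 6 had one. The motif TNAAGGTCA, the site read by the estrogen-related receptors, was in 0 of 23 carrier genes and 1.3% of all genes. The NRF-1 motif was in 1 of 23, Slc25a3, and 4.23% of all genes, and the E-box CACGTG was in 5 of 23 and 6.86% of all genes. These motifs were chosen after the values were seen, both strands were read, and a match describes letters, not binding. None of these motifs contains another.

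Among carriers of tricarboxylates and dicarboxylates, the 2-oxoglutarate/malate carrier gene fell and the dicarboxylate carrier gene did not pass. Slc25a11, whose product exchanges malate for 2-oxoglutarate as the first step of the malate-aspartate shuttle, lies on chromosome 11 at 70644019 to 70647531. It had signals of 6201.4, 6733.6, 6625.9 and 5767.7 on male sham 1 to 4 and of 4121.1, 4601.4, 3925.0 and 4137.8 on male TAC 1, 2, 4 and 5. Female arrays had 5493.5, 5821.2, 5812.8 and 5333.2 on sham 1 to 4 and 3677.3, 4735.1, 4646.7 and 3871.2 on TAC 1, 2, 3 and 5. All 8 TAC arrays lay below all 8 sham arrays. The gene fell 1.51-fold in males (-0.59 ± 0.10 SE, adjusted p = 0.000297 in limma) and 1.33-fold in females (-0.41 ± 0.10, adjusted p = 0.00683). After median centring the female difference was -0.30 (adjusted p = 0.0566, within a range over all alternatives of 0.00319 to 0.0566), while the male call held under every alternative run (highest adjusted p, 0.0225).

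Slc25a10, the dicarboxylate carrier gene, had mean signals of 461 ± 81.6 (SD, n = 4) in sham males, 488 ± 90.3 in TAC males, 500.1 ± 105 in sham females and 482 ± 43.0 in TAC females. These groups overlapped (0.08 in males, adjusted p = 0.804; -0.03 in females, adjusted p = 0.926). On its dimmer probe set 1416955_at, male shams had 121.0 to 155.0 and female shams 181.5 to 235.0, groups that did not overlap, with a difference of 0.51 that did not pass (adjusted p = 0.435).

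Of 7 amino acid carrier genes, 2 fell in each sex and 5 did not pass. Slc25a13 encodes citrin, an aspartate/glutamate carrier that is activated by calcium and takes part in the malate-aspartate shuttle with the 2-oxoglutarate carrier. Slc25a12, its paralogue, was not among the genes that the rule took. Slc25a13 spans 176.1 kb of chromosome 6, from 6041218 to 6217304. It had signals of 1616.0, 1762.6, 1659.9 and 2117.6 on male sham 1 to 4 and of 915.2, 1007.4, 867.6 and 1216.7 on male TAC 1, 2, 4 and 5. The female signals were 1754.8, 2013.6, 1670.8 and 1635.0 on sham 1 to 4 and 1379.7, 1044.7, 1122.1 and 934.0 on TAC 1, 2, 3 and 5. As for Slc25a11, all 8 TAC arrays lay below all 8 sham arrays, a pattern found for 4.61% of all 13576 probe sets. The gene fell 1.78-fold in males (-0.83 ± 0.14 SE, adjusted p = 0.000306 in limma) and 1.58-fold in females (-0.66 ± 0.14, adjusted p = 0.00274). With the Gapdh ratio in the fit the differences were -0.92 (adjusted p = 0.0548) and -0.72 (adjusted p = 0.0512), and with the 18S signal the male difference was -0.60 (adjusted p = 0.0718). Over all alternatives the adjusted p ranged from 0.000166 to 0.0718 in males and from 0.00122 to 0.0512 in females.

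Slc25a22, on chromosome 7 at 141429749 to 141437874, encodes a mitochondrial glutamate carrier. It had signals of 712.1, 838.2, 798.9 and 845.4 on male sham 1 to 4 and of 233.4, 361.3, 813.4 and 535.1 on male TAC 1, 2, 4 and 5, so that male TAC 4 lay within the range of the shams. In females it had 1066.5, 1080.9, 897.4 and 748.2 on sham 1 to 4 and 617.9, 523.9, 413.0 and 594.0 on TAC 1, 2, 3 and 5, with no overlap. It fell 1.79-fold in males (-0.84 ± 0.25 SE, adjusted p = 0.0256 in limma) and 1.74-fold in females (-0.80 ± 0.25, adjusted p = 0.0361). Single arrays decided both calls. Leaving out male TAC 1 ended the male call (-0.55, adjusted p = 0.0954), as did leaving out male TAC 2 (0.0797) or one of male sham 2, 3 and 4 (0.0565, 0.0544 and 0.0587), within a range over all alternatives of 0.00146 to 0.843. The female call ended without female TAC 2 or 3 (0.0695 and 0.107) or female sham 1, 2 or 3 (0.0922, 0.0944 and 0.0631), within 0.00675 to 0.606. Both calls also ended with the 18S signal (-0.80, adjusted p = 0.225, and -0.78, adjusted p = 0.105) and with the Gapdh ratio, where the differences were -0.23 in males and -0.39 in females. With only the groups compared, the male call ended (adjusted p = 0.0633 in limma). The female call ended after median centring (0.0674), without a filter (0.0551), without an intensity trend (0.0645) and with the replicate block (0.0622).

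The other amino acid carriers did not pass in either sex on their probe sets of highest mean. They were Slc25a15, an ornithine carrier of the urea cycle (0.10 in males and 0.31 in females), Slc25a2, its close relative (0.03 and -0.21), Slc25a29, a carrier of basic amino acids (-0.17 and -0.02), Slc25a44, a carrier of branched-chain amino acids (0.03 and -0.10), and Slc25a38, which supplies glycine for haem synthesis (-0.39 and 0.12). Slc25a38 had 654.2 to 671.8 in sham males and 405.0 to 652.6 in TAC males, apart by a narrow margin. A dimmer probe set of Slc25a44, 1456465_at, had 443 ± 155 (SD, n = 4) in sham males and 264 ± 48.0 in TAC males, with overlap (-0.67, adjusted p = 0.093). The dim second probe set of Slc25a15, 1420966_at, was below the filter. In the fit without a filter it was lower after TAC averaged over the sexes (-0.89 ± 0.28 SE, adjusted p = 0.0345 in limma) and passed in neither sex alone (adjusted p = 0.2 and 0.207). Its signals were 95.8 to 170.0 on male sham and 47.4 to 65.9 on male TAC arrays, apart, and 85.7 to 169.9 on female sham and 18.1 to 115.9 on female TAC arrays, with overlap. The brighter probe set had the opposite sign (0.20) and did not pass.

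**Figure D2:**
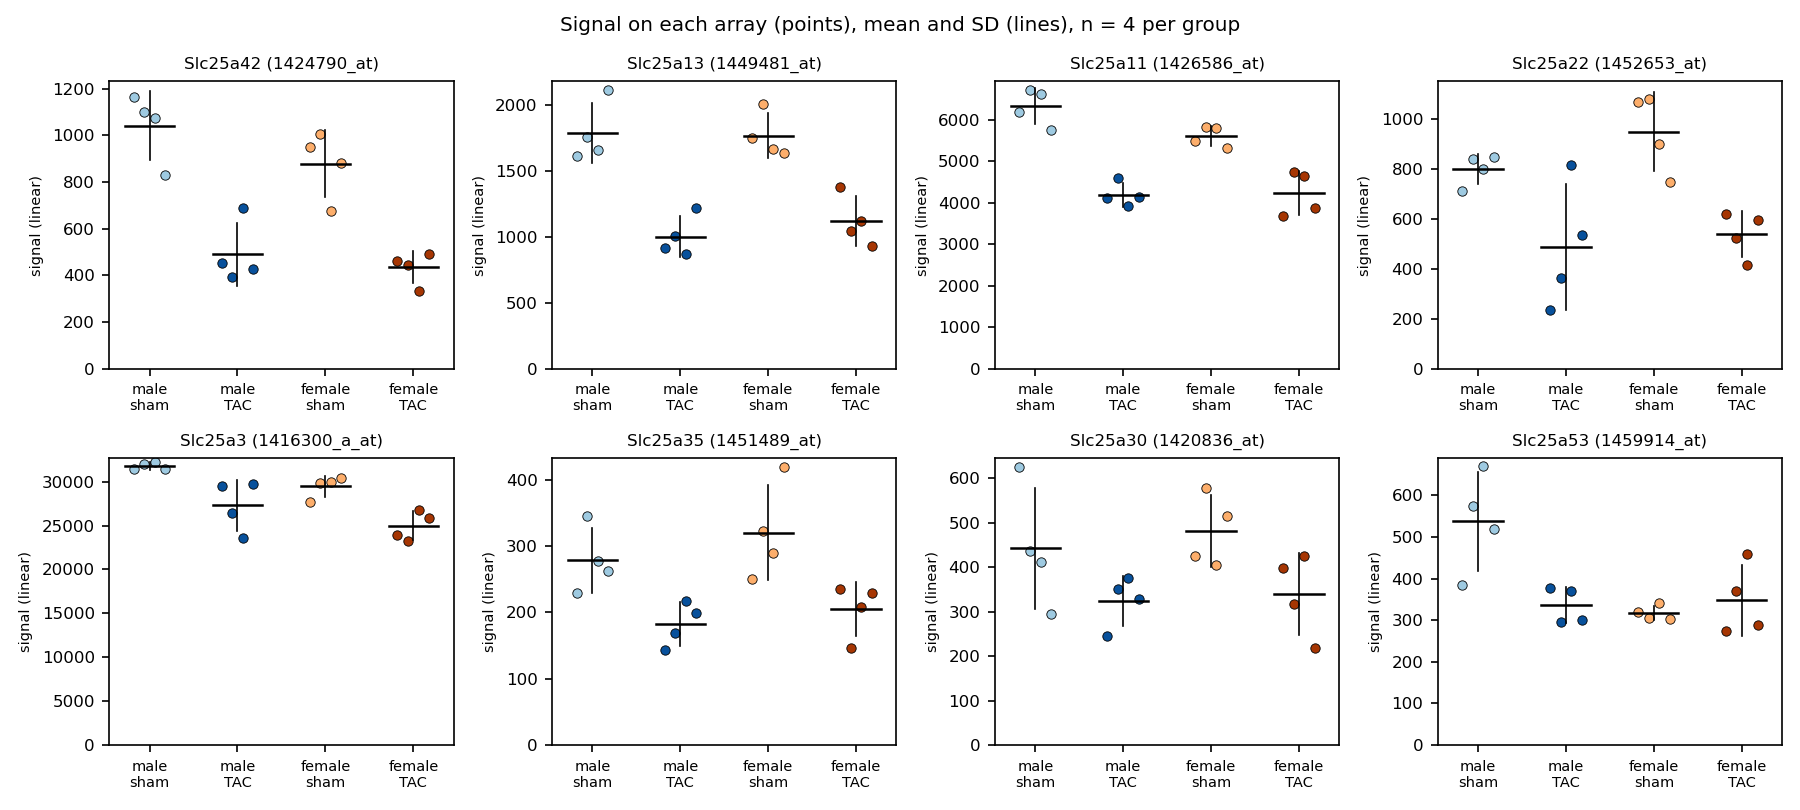
Signal of 8 SLC25 genes on each of the 16 arrays, on a linear axis from 0; points are arrays, the horizontal line is the group mean and the vertical line the SD, n = 4 in each group. For Slc25a13 and Slc25a11 all TAC arrays lie below all sham arrays, male TAC 4 of Slc25a22 lies among the shams at 813.4, and Slc25a53 is highest in sham males.

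Of 5 phosphate and nucleotide carrier genes, 0 passed within a sex and 1 fell when the sexes were averaged. Slc25a3, on chromosome 10 at 91116574 to 91124046, encodes the carrier that imports the phosphate used by ATP synthase. It had signals of 31399.4, 32005.3, 32239.1 and 31433.5 on male sham 1 to 4 and of 29521.2, 26409.7, 23616.5 and 29768.0 on male TAC 1, 2, 4 and 5. Among females it had 27719.6, 29885.3, 29964.8 and 30393.9 on sham 1 to 4 and 23908.6, 23254.9, 26806.8 and 25837.0 on TAC 1, 2, 3 and 5. TAC and sham arrays did not overlap within a sex, and male TAC 1 and 5 lay above female sham 1. The difference was -0.22 ± 0.08 (SE) in males (adjusted p = 0.0697 in limma), -0.24 ± 0.08 in females (adjusted p = 0.054) and -0.23 ± 0.06 averaged (1.18-fold, adjusted p = 0.00499). The averaged call ended after quantile normalization (-0.01, adjusted p = 0.857), median centring (-0.15, adjusted p = 0.151) and with the 18S signal (-0.11, adjusted p = 0.435) or the Gapdh ratio (-0.32, adjusted p = 0.128), within a range over all alternatives of 0.00222 to 0.857.

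The calcium-regulated ATP-Mg/phosphate carrier genes Slc25a23 (-0.18 in males and 0.00 in females) and Slc25a25 (-0.21 and 0.33) did not pass. The pyrimidine nucleotide carrier genes did not pass either. Slc25a33 had 745 ± 187 (SD, n = 4) in sham males and 537 ± 76.3 in TAC males, with overlap (-0.44, adjusted p = 0.157), and 726 ± 97.8 and 629 ± 207 in the female groups (-0.25, adjusted p = 0.475). Slc25a36 differed by 0.05 in males and -0.10 in females. The third ATP-Mg/phosphate carrier gene, Slc25a24, was too dim to be tested with the others, at group means of 22.3 to 55.0.

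Of 3 tested cofactor carrier genes, Slc25a42 fell in both sexes and the other two did not pass. Slc25a51, which encodes the carrier of NAD, differed by -0.10 in males and -0.07 in females, and its second tested probe set gave -0.10 and -0.06. Slc25a26, which encodes the carrier of the methyl donor S-adenosylmethionine, had 450.0 ± 141 (SD, n = 4) in sham males and 316 ± 74.6 in TAC males (-0.47, adjusted p = 0.19), against 366 ± 58.3 and 384 ± 121 in the female groups (0.03, adjusted p = 0.957). The peroxisomal carrier gene Slc25a17 lay below the filter on both of its probe sets. On the brighter one it had 56.8 to 189.6 in sham males and 27.3 to 66.7 in TAC males, and in the fit without a filter the difference of -1.12 did not pass (adjusted p = 0.139).

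None of the 3 carrier genes of iron and glutathione passed in either sex. Their differences lay below 0 in males and above 0 in females on the probe sets of highest mean, as did those of 8 of all 26 carrier genes, among them Slc25a25, Slc25a26, Slc25a46 and Slc25a53, so the signs are not particular to these genes. The mitoferrin genes Slc25a37 and Slc25a28 import the iron used for haem and iron-sulphur clusters. Slc25a37 had 503.8, 375.3, 489.8 and 524.7 on male sham 1 to 4, 472.8, 366.9, 351.5 and 306.0 on male TAC 1, 2, 4 and 5, 468.9, 356.4, 497.3 and 334.8 on female sham 1 to 4, and 437.1, 497.9, 462.8 and 624.7 on female TAC 1, 2, 3 and 5. The groups overlapped within each sex (-0.33 in males, adjusted p = 0.225; 0.28 in females, adjusted p = 0.323). Slc25a28 differed by -0.31 in males and 0.13 in females, and Slc25a39, a glutathione carrier gene, by -0.05 and 0.10.

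The difference between the sexes in these responses did not pass the test. The female minus the male response was 0.62 for Slc25a37 (95% interval 0.09 to 1.14, adjusted p = 0.704 in limma), 0.51 for Slc25a38 (-0.04 to 1.07, adjusted p = 0.796), 0.44 for Slc25a28 and 0.15 for Slc25a39. Slc25a37 is also an erythroid gene, and the erythroid marker Alas2, the first enzyme of haem synthesis in red cell precursors, differed by -0.46 in males and 0.51 in females, neither of which passed. Of 8 erythroid markers listed, 4 had a named probe set and only Alas2 was above the filter, and the summed signal of the 4 was 654.5 to 822 on male sham, 400.2 to 883.9 on male TAC, 374.3 to 819 on female sham and 624.2 to 795.4 on female TAC arrays. Hba-a1, a haemoglobin gene below the filter, was higher in females in the fit without a filter (1.42, adjusted p = 0.0441 in limma) and differed by -0.12 in males. The other erythroid markers with a probe set, Slc4a1 (-0.07 and -0.54) and Epb42 (0.04 and 0.08), were below the filter, did not pass and did not share these signs. The part of blood cells in these values was not tested.

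Among 3 tested probe sets of Slc25a39, 1453111_a_at lay below 0 in both sexes (-0.13 and -0.04) and 1456176_x_at had 1582.3 to 1929.7 in sham females and 1886.5 to 2368.1 in TAC females (0.32, adjusted p = 0.0799). It was the only carrier probe set called higher under any alternative, namely in females after median centring (0.43, adjusted p = 0.0192) and with array weights (0.34, adjusted p = 0.0443), and averaged over the sexes after median centring (0.23, adjusted p = 0.0464). Names ending in _x_at mark probe sets with probes that can also match other sequences. The probe set of highest mean of Slc25a39, 1439410_x_at, has such a name too. Those of Slc25a26 (1428929_s_at) and Slc25a47 (1435007_s_at) end in _s_at, a mark of probes that match transcripts of more than 1 gene.

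Slc25a30, the kidney mitochondrial carrier gene and a relative of the uncoupling proteins, spans 29.5 kb of chromosome 14 from 75757534 to 75787037. On its probe set of highest mean, 1420836_at, it had 625.7, 437.4, 412.8 and 295.2 on male sham 1 to 4 and 245.7, 350.3, 376.4 and 327.8 on male TAC 1, 2, 4 and 5, with overlap. Female signals were 425.2, 579.0, 404.8 and 514.9 on sham 1 to 4 and 398.7, 317.5, 425.7 and 218.6 on TAC 1, 2, 3 and 5, again with overlap. It fell 1.37-fold averaged over the sexes (-0.45 ± 0.16 SE, adjusted p = 0.0404 in limma) and passed in neither sex alone. The call ended when any of several single arrays was left out: female TAC 2 (adjusted p = 0.0635) or 5 (-0.36, 0.0934), female sham 2 (0.0833) or 4 (0.0689), male TAC 1 (0.0848) or 5 (0.0526), and male sham 1 (0.0939), 2 (0.0617) or 3 (0.0552). It also ended after quantile normalization (0.0726) or median centring (0.0905), without a filter (0.0671) and without an intensity trend (0.051). The replicate block (0.156), the 18S signal (0.285) and the Gapdh ratio (-0.15) ended it too. In all, 16 of 28 alternatives did so, within a range over all alternatives of 0.015 to 0.862.

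The other probe sets of Slc25a30 did not all follow. The probe set 1420835_at had 387.5 to 744.9 on male sham, 172.2 to 396.2 on male TAC, 406.9 to 459.5 on female sham and 242.7 to 330.1 on female TAC arrays, the latter groups without overlap, and fell averaged over the sexes (-0.58 ± 0.16 SE, adjusted p = 0.0116 in limma). That call ended with the Gapdh ratio (-0.71, adjusted p = 0.261) and with the replicate number as a block (-0.43, adjusted p = 0.0846), within a range over all alternatives of 0.00761 to 0.261, and with the 18S signal the difference was -0.96. The probe set 1450018_s_at, whose probes match transcripts of more than 1 gene by its name, had the opposite sign (0.37, adjusted p = 0.467). Of the pair below the filter, 1425948_a_at had 22.7 to 140.6 on male sham, at most 21.6 on male TAC, 32.6 to 120.4 on female sham and 7.5 to 11.6 on female TAC arrays, with no overlap in either sex. In the fit without a filter it was lower in females (-1.66 ± 0.40, adjusted p = 0.0111) and not called in males (-1.20 ± 0.40, adjusted p = 0.0637), and 1425949_at did not pass. The other uncoupling protein relative, Slc25a14, was below the filter, at group means of 31.2 to 73.8.

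Of 5 tested carrier genes with other or unsettled substrates, Slc25a35 and Slc25a53 passed a test. Slc25a35, on chromosome 11 at 68968096 to 68972516, had signals of 228.8, 344.9, 276.6 and 262.7 on male sham 1 to 4 and of 142.9, 169.1, 216.8 and 199.6 on male TAC 1, 2, 4 and 5. Female arrays had 249.5, 322.9, 289.7 and 418.8 on sham 1 to 4 and 235.5, 146.5, 207.4 and 229.4 on TAC 1, 2, 3 and 5. The groups did not overlap within a sex, and female TAC 1 lay above male sham 1. The gene fell 1.503-fold averaged over the sexes (-0.59 ± 0.16 SE, adjusted p = 0.00724 in limma), and passed in neither sex alone (-0.57, adjusted p = 0.0814; -0.60, adjusted p = 0.072). The averaged call ended with the 18S signal (-0.38, adjusted p = 0.332) and the Gapdh ratio (-0.55, adjusted p = 0.371), within 0.00393 to 0.371 over all alternatives.

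Slc25a53 is an X-linked carrier gene of unsettled function, at 136981116 to 137038302. It had signals of 385.0, 574.3, 669.2 and 519.7 on male sham 1 to 4 and of 376.4, 294.9, 369.8 and 301.4 on male TAC 1, 2, 4 and 5. In females it had 319.7, 304.6, 340.1 and 303.9 on sham 1 to 4 and 273.9, 371.1, 458.6 and 287.2 on TAC 1, 2, 3 and 5. Male shams lay above every male TAC and every female sham array, while TAC and sham overlapped in females. The gene fell 1.55-fold in males (-0.64 ± 0.19 SE, adjusted p = 0.0239 in limma) and differed by 0.10 in females (adjusted p = 0.79). Leaving out male sham 3 ended this call (-0.52, adjusted p = 0.0931), as did leaving out male sham 2 (0.0626), male TAC 2 (0.071) or male TAC 5 (0.0581). It also ended with the 18S signal (-0.79, adjusted p = 0.0938), the Gapdh ratio (-0.69, adjusted p = 0.31) and the replicate number as a block (-0.50, adjusted p = 0.0849), within a range over all alternatives of 0.00867 to 0.31. The female minus the male response was 0.73 (95% interval 0.18 to 1.29, unadjusted p = 0.0125 in limma, adjusted p = 0.664), so the responses were not shown to differ.

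Slc25a45 had the highest differences among the 26 genes when the sexes were averaged, with 419.6 ± 130 (SD, n = 4) in sham males and 528 ± 78.5 in TAC males (0.36, adjusted p = 0.292) and 401 ± 111 and 471 ± 96.3 in the female groups (0.24, adjusted p = 0.525), neither of which passed. Slc25a47, known from liver, differed by -0.10 in both sexes. Its gene lies 14.0 kb from that of Slc25a29 on chromosome 12, with 1 annotated gene, Mir345, between them, and neither carrier passed. Apart from those described, the probe sets below the filter included 1427425_at of Slc25a51 and both 1423979_a_at and 1423981_x_at of Slc25a29, none of which passed in the fit without a filter. Slc25a48 was dim on both probe sets, at group means of 6.73 to 24.9.

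Slc25a46 encodes an outer membrane member of the family known for its part in mitochondrial fission and lipid supply, and its probe sets gave different answers. On 1418134_at, the brighter one, male shams had 1901.2, 2003.0, 1737.6 and 1689.9, male TAC 1626.4, 2034.5, 1710.8 and 1629.8, female shams 1743.8, 1692.8, 1389.1 and 1788.7, and female TAC 1321.4, 2078.8, 1926.0 and 1662.3. These groups overlapped (-0.07 in males, adjusted p = 0.787; 0.07 in females, adjusted p = 0.811). On 1448970_at, male shams had 1295.9, 1638.2, 1393.3 and 1653.3, male TAC 843.6, 1089.8, 853.1 and 948.0, female shams 1750.3, 1309.9, 1622.4 and 1590.5, and female TAC 972.7, 1014.2, 1108.9 and 1025.7. On this probe set all 8 TAC arrays lay below all 8 sham arrays.

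The probe set 1448970_at fell 1.59-fold in males (-0.67 ± 0.13 SE, adjusted p = 0.00087 in limma) and 1.51-fold in females (-0.59 ± 0.13, adjusted p = 0.00292). With the Gapdh ratio in the fit the differences were -0.76 (adjusted p = 0.0767) and -0.65 (adjusted p = 0.0505), within ranges of 0.000624 to 0.0767 and 0.0021 to 0.0505. The log2 ratio of 1448970_at to 1418134_at on the same array averaged -0.30 ± 0.21 (SD, n = 4) in sham males and -0.90 ± 0.09 in TAC males, and -0.08 ± 0.25 and -0.73 ± 0.24 in the female groups. The shift of this ratio was -0.60 in males and -0.66 in females. This ratio was chosen because the probe sets were seen to differ, so it is a description with no test, and it does not say which of them tracks the gene.

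**Figure D3:**
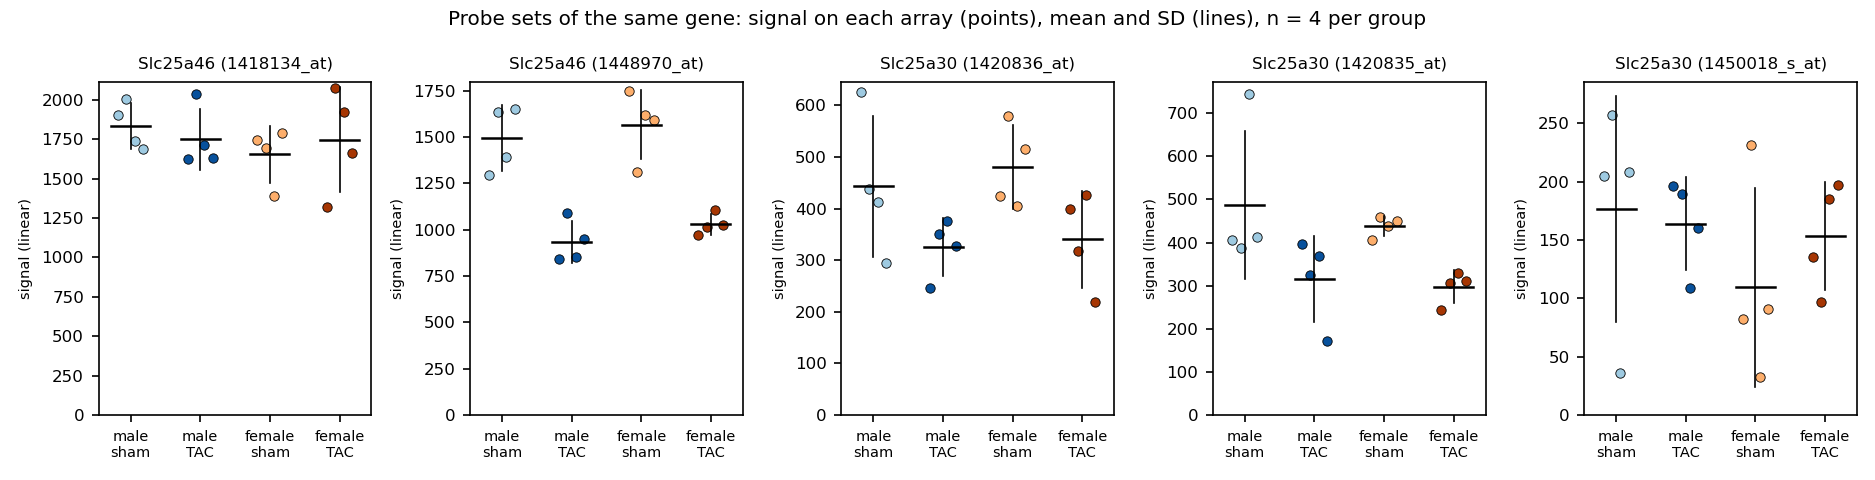
Signal of 2 probe sets of Slc25a46 and 3 of Slc25a30 on each array, on linear axes from 0; points are arrays, the horizontal line is the group mean and the vertical line the SD, n = 4 in each group. For Slc25a46, 1418134_at overlaps between TAC and sham while 1448970_at lies lower on all TAC arrays, and for Slc25a30, 1450018_s_at does not follow the other probe sets.

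Among the 9 genes with several tested probe sets, the averaged TAC difference varied between probe sets by 0.01 for Slc25a51 to 0.95 for Slc25a30, with 0.63 for Slc25a46 and 0.47 for Slc25a29. Over all 39 tested probe sets, 6 fell in males, 5 in females and 9 with both sexes averaged, against 9.77%, 8.6% and 15.8% of all 13576. TAC and sham signals did not overlap for 8 of 39 in each sex, all lower after TAC, where 19.6% of all tested probe sets did not overlap in males and 19.9% in females, 10.9% and 11.6% lower.

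No carrier differed between the sexes past the threshold. For the difference of the TAC responses, limma called 0 of 39 carrier probe sets and 0% of all 13576, with 2 carriers at an unadjusted p below 0.05 (Slc25a53 and Slc25a37). Between female and male shams 0 were called, where limma called 0.309% of all probe sets, with 3 at an unadjusted p below 0.05: Slc25a53, lower in sham females (-0.71, 95% interval -1.10 to -0.31, adjusted p = 0.137), Slc25a38 (-0.45, adjusted p = 0.41) and 1416955_at of Slc25a10. Female shams had 329.0 to 606.1 of Slc25a38, all below the male shams. Between female and male TAC 0 were called, where 0.0663% of all were, with Slc25a37 alone at an unadjusted p below 0.05 (0.42, adjusted p = 0.73). The share of all probe sets at the unadjusted cut was not counted, so the unadjusted counts cannot be set against it.

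Related mitochondrial genes were counted on lists chosen for their role beside the carriers. Of all 8272 genes, 7.77% fell and 8.1% rose in males, 6.69% and 6.37% in females, and 13.1% and 13.4% averaged over the sexes. Of 6 tested redox shuttle enzymes, 3 fell in males, 2 in females and 3 with both sexes averaged (medians -0.38, -0.33 and -0.35). Got1, the cytosolic aspartate aminotransferase that works beside Slc25a13 and Slc25a11 in the malate-aspartate shuttle, fell from 12070 ± 950.1 (SD, n = 4) to 6817 ± 786 in males (-0.83, adjusted p = 9.98e-06 in limma) and from 11630 ± 753 to 6656 ± 622 in females (-0.81, adjusted p = 2.2e-05). Mdh1, the cytosolic malate dehydrogenase of the same shuttle, fell in males (-0.50) and in females (-0.38).

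Mitochondrial membrane transporters and related proteins outside the SLC25 family also included genes that fell. Of 11 tested, 4 fell and 2 rose in males and 3 fell and 1 rose in females. The shares of all genes were 7.77% lower and 8.1% higher in males, and 6.69% and 6.37% in females. Mpc1, a subunit of the mitochondrial pyruvate carrier, fell in both sexes (-0.52 and -0.44), and Abcb6, a porphyrin transporter, rose in both (0.66 and 1.17). Among SLC25 relatives that the rule leaves out, Ucp3, an uncoupling protein of muscle, fell in both sexes (-1.62 and -1.40), Slc25a4, the heart adenine nucleotide translocator gene, fell in females (-0.34), and Mtch1 rose in males (0.71).

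The list of 20 mitochondrial protein import genes is not limited to the import of carriers, and holds outer membrane Tomm genes too. Of these 20, 1 rose and 2 fell in males, and 3 rose and 0 fell in females. Averaged over the sexes, 7 rose and 2 fell (median 0.17). The shares of all genes were 8.1% higher and 7.77% lower in males, 6.37% and 6.69% in females, and 13.4% and 13.1% averaged. Timm22, the channel through which SLC25 carriers are inserted, rose in females (0.45, adjusted p = 0.0431 in limma) and differed by 0.28 in males (adjusted p = 0.206). Timm29, a subunit of the same complex, fell in males (-0.58). Of 7 outer membrane channels and contact proteins, the translocator protein gene Tspo rose in both sexes (1.21 and 0.82) and Vdac1, Vdac2 and Vdac3 did not pass in either. Vdac2 (-0.21) and Ppif (-0.255) fell only in the averaged comparison. Of 6 phosphoryl transfer kinases, Ckb rose in both sexes (0.90 and 0.85) and Ak4 fell in males (-0.55), while the mitochondrial creatine kinase gene Ckmt2 fell only in the averaged comparison (-0.22). Of 6 genes of cytosolic citrate, acetyl-CoA and related metabolism, Me1 and Idh1 among them, 2 fell in males and 3 in females. Mlycd (-1.14 and -0.73) and Acacb (-0.69 and -0.49) fell in both sexes, and Idh1 passed in females only (-0.82).

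**Figure D4:**
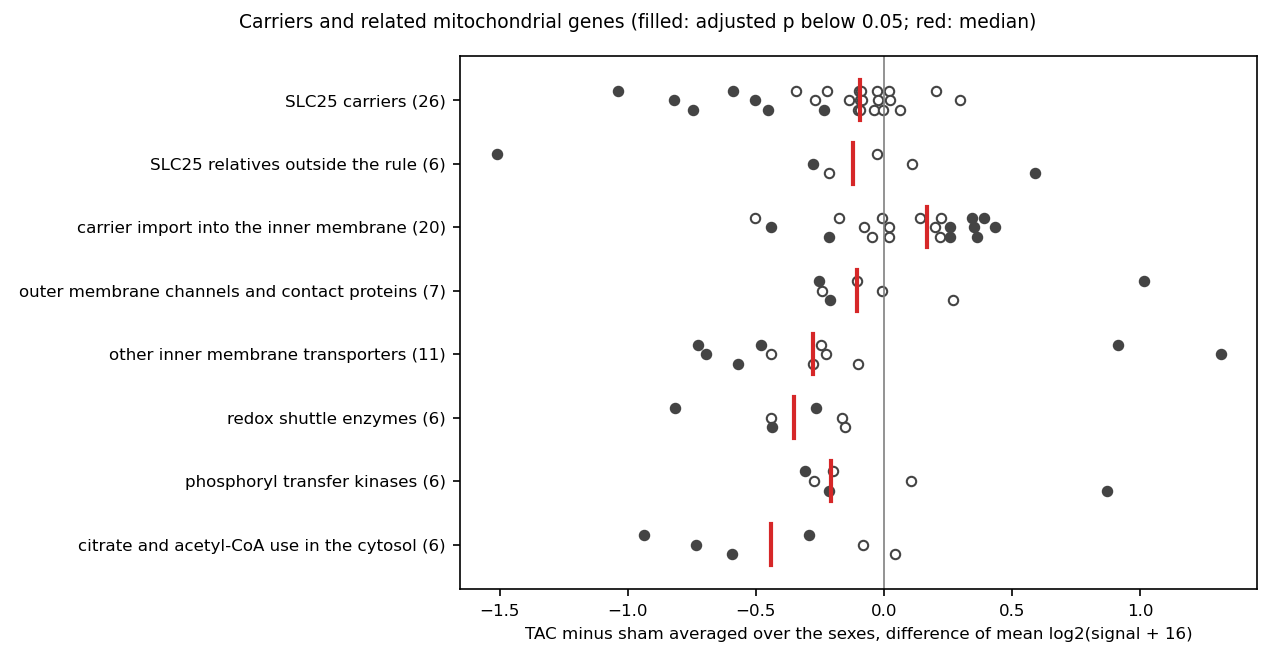
TAC minus sham averaged over the sexes for the 26 SLC25 genes and for the tested genes of 7 related lists; the horizontal axis is the difference of mean log2(signal + 16), each point is a gene, filled points passed the adjusted threshold and the red line is the median of the list. The median lies below 0 for the carriers and for 6 of the lists. It lies at 0.17 for the list labelled carrier import, which also holds other mitochondrial protein import genes.

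Markers of cell types moved with the operation beside these falls. For all 8272 genes, the shares were 7.77% lower and 8.1% higher in males, and 6.69% and 6.37% in females. Of 8 cardiomyocyte markers, 5 fell and 0 rose in males and 7 fell and 1 rose in females, with medians of -0.34 and -0.37, and their summed signal was 259246 to 313851 on male sham, 217952 to 258569 on male TAC, 266439 to 287575 on female sham and 193699 to 235367 on female TAC arrays. Most of these probe sets are bright, and the highest signal of an array was 37157.7 to 54105.3 on TAC and 52044.9 to 64395 on sham arrays. These markers were not followed through the other scalings. Of 8 fibroblast markers, 5 rose in males and 4 in females, among them Postn (2.90 and 2.14) and Col1a1 (1.63 and 1.24). Lum rose in males only (0.665 and -0.40). Tcf21 (0.54 and -0.195), Pdgfra (0.42 and -0.26) and Dcn (-0.075 and -0.13) did not pass in either sex. Of 6 tested macrophage and leukocyte markers, 4 rose in males and 1 in females. Of 7 endothelial markers 0 passed in either sex. The falls of Slc25a42 (-1.08 and -0.99), Slc25a13 (-0.83 and -0.66) and Slc25a11 (-0.59 and -0.41) stand beside the cardiomyocyte medians, and the part of cell makeup in them was not tested.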

How the data were processed

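Biotin-labelled RNA of 16 left ventricles was hybridised to Affymetrix 430A arrays, per the labels' protocols. The deposited values are linear intensity signals made with GCOS, per the submitters' processing notes, and its version is not given in the sources used here. The mean of each array without the highest and lowest 2% was about 500.2, so the deposited signals are scaled, and lower signals on 1 array can reflect this scaling.

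Signals were analysed as log2(signal + 16) without further normalization. The 64 control probe sets and the dimmest 40% of the rest were left out, which left 13576. One model with a mean for each of 4 groups was fitted with limma 3.58.1 in R 4.3.3, with an intensity trend, and p-values were adjusted by Benjamini-Hochberg over all 13576 probe sets. A platform annotation table paired 20380 probe sets with 1 gene symbol, 691 with several and 1555 with none, and all 51 member probe sets were found in RefSeq GRCm38.p6. Values below the filter come from the same fit without a filter. The script was tested on simulated data.

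Genes were named in full where the probe set of highest mean, or another probe set with another call or sign, passed in at least 1 comparison, and other members by group means, ranges and counts. The members and lists were chosen with earlier results of these data known. Alternatives were other scalings, pseudocounts of 1 and 64, other filters, 1 probe set per gene, no trend, array weights, only the groups compared, a replicate block, the 18S signal or Gapdh ratio as a covariate, and leaving out each array. The number of arrays limits the precision, and signals of arrays give no count of molecules.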

Additional observations from a re-analysis of the deposited data

Results flagged for a closer look

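In 7 of 156 groups of 4 arrays examined over the 39 tested carrier probe sets, 1 array stood apart from the other arrays of its group by Dixon's test at the 95% level, which chance does in about 5% of groups. Male sham 3 was such an array for 3 probe sets. It had 744.9 on Slc25a30 probe set 1420835_at, where the other male shams had 387.5 to 411.9, and 36.3 on 1450018_s_at of the same gene, where they had 204.5 to 257.5. It had 190.2 on 1420967_at of the ornithine carrier gene Slc25a15, where they had 299.6 to 318.3.

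Male TAC 2 had 622.8 on 1416954_at of the dicarboxylate carrier gene Slc25a10, where the rest of its group had 428.4 to 455.2, and 184.6 on 1423980_at of Slc25a29, against 83.4 to 87.0. Male TAC 4 had 395.8 on 1435007_s_at of Slc25a47, against 284.7 to 298.7. Female sham 1 had 280.0 on 1428929_s_at of Slc25a26, against 382.3 to 403.1 on the other female shams.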

How the results depend on the processing

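Of 39 tested carrier probe sets, 6 passed in males, 5 in females and 9 with both sexes averaged, and 0 for each comparison between the sexes. With the Gapdh ratio as a covariate these counts were 1, 1 and 3, and with the 18S signal the averaged count was 5. Array weights gave 8 in females. Leaving out each array in turn gave 4 to 6 in males, 4 to 5 in females, 8 to 10 averaged and 0 to 0 for the comparisons between the sexes. The cause of these shifts was not tested, and the covariates move with the operation. Of 478 refits of the 20 single differences that passed, 417 passed again and 61 did not, 23 of them with a quality covariate and 23 without 1 array, and 0 changed sign.

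No pairing of arrays by replicate number was seen. The deviations of 19 same-numbered pairs correlated by -0.035 to 0.115, and 3 of 16 arrays correlated best with their own number. The labels do not say what the number marks, and a small shared effect could be missed this way. With the replicate number as a block, 6 carrier probe sets passed in males, 5 in females, 8 averaged and 0 between the sexes. The fit of only the groups compared was not run for the averaged and the response comparisons, which need all groups. Dim probe sets, with signals near 130.8, limit what 4 arrays a group can show.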
